A study of Mus musculus with 18 samples.

Results

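Isl1, Isl2, Lhx3, Lhx4 and Mnx1 are the homeodomain transcription factors by which newborn spinal motor neurons (MNs) are recognized. All 5 were found among the 27179 genes of the count tables by their Entrez identifiers, and their levels and the ratios between them were followed over all 6 groups of the series. RNA was sequenced from 18 libraries, 3 per group, of mouse embryonic stem cells (ESCs) differentiating as embryoid bodies, and all cultures received 1 µM retinoic acid and 0.5 µM of the Hedgehog agonist SAG from day 0. Day 2 progenitors came from the Ainv15(iCre) line before any induction. Control neurons came from the Ainv15(iFlag.Hoxc6) line on day 4 without doxycycline (Dox), so the transgene was present but not induced. The iHoxc6, iHoxc8, iHoxc9 and iHoxc10 neurons came from Ainv15(iFlag.Hoxc6), Ainv15(iFlag.Hoxc8), Ainv15(iFlag.Hoxc9) and Ainv15(iFlag.Hoxc10) cells, were given 3 µg/ml Dox for 48 h from day 2 and were collected on day 4. In each line 1 Flag-tagged Hox transgene sits at the HPRT locus and is switched on by Dox, and its induction is not limited to MNs in a culture that also holds interneurons.

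Isl1, Isl2, Lhx3 and Lhx4 belong to the LIM homeodomain family, whose LIM domains bind the bridging protein LDB1. In a newborn MN, LDB1 joins an Isl factor and an Lhx factor into a complex that switches on MN genes, whereas Lhx3 with LDB1 but without Isl drives the V2a interneuron program. Mnx1, also called Hb9, holds that interneuron program down in MNs. Later in development Isl and Lhx genes are kept or lost by MN column, since medial column neurons retain Lhx3 and Lhx4 and limb-innervating neurons lose them, and Hox proteins set these columns along the spinal cord.

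Total counts per library ranged from 24498630 to 33168533, so that 3 counts amounted to 0.0905 to 0.122 CPM (counts scaled to library size by edgeR's TMM method). This limit takes in no error other than that of counting. The lowest count of any of the 5 genes was 28, for Lhx4 in a day 2 library. The libraries came from 4 sequencing runs. Control and iHoxc6 neurons shared a run, iHoxc9 and iHoxc10 neurons shared another, and day 2 progenitors and iHoxc8 neurons had a run each, so differences across runs cannot be told apart from those of line and Hox gene. Each line expressed its induced gene, at a mean of 514 CPM for Hoxc6, 389 CPM for Hoxc8, 224 CPM for Hoxc9 and 430.1 CPM for Hoxc10. Hoxc6 also stood at 43.1 to 49.4 CPM in the iHoxc10 libraries, against 1.80 to 5.17 CPM in control libraries, and its part in the comparisons with iHoxc10 was not tested. The cell type in the labels is embryoid bodies. The 5 markers fixed for spinal MNs (Isl1, Mnx1, Chat, Slc18a3 and Slc5a7) summed to 14.96 to 35.3 CPM in day 2 libraries and to 227 to 508 CPM in day 4 libraries. Within day 4 they summed to 227 to 240 CPM in iHoxc9 and 426 to 456 CPM in control libraries, with 3 of 5 lower in iHoxc9. Isl1 and Mnx1 are also among the genes studied here, so this sum is not independent of them. Pou5f1 and Nanog, which mark pluripotent cells, had 3 counts or fewer in every day 4 library. In the second control library the MN progenitor gene Olig2 stood at 116 CPM against 45.5 and 58.1 CPM in the other two, and the same library had the lowest control level of Isl1 and Mnx1. Leaving this library out changed 1 call of the 5 genes against control, that of Isl1 in iHoxc9 neurons, given with Isl1.

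Isl1 lies on chromosome 13 (chr13:116298270-116309688, minus strand, GRCm38), Isl2 on chromosome 9 (chr9:55538677-55547667, plus strand), Lhx3 on chromosome 2 (chr2:26200212-26208249, minus strand), Lhx4 on chromosome 1 (chr1:155698031-155751726, minus strand) and Mnx1 on chromosome 5 (chr5:29473823-29478470, minus strand). In GENCODE M21 the antisense gene Gm17226 covers 1340 bases of Isl2 and the antisense gene Gm27196 covers 1548 bases of Lhx3. The strand setting of the counting is not given in the sources used here, so part of the reads of Isl2 and Lhx3 is uncertain. The 250 bases before the RefSeq start are shown for Isl2 and Lhx4, whose levels moved together over the libraries, and for Isl1, whose level ran the other way. Each is written 5′ to 3′ on the strand of the gene, from RefSeq on GRCm38.p6, with TAAT and TTAT in capitals on either strand, the short AT-rich letters that homeodomains commonly bind. The windows are chr9:55540899-55541148 (plus strand) for Isl2, chr1:155742028-155742277 (minus strand) for Lhx4 and chr13:116309689-116309938 (minus strand) for Isl1.
Isl2: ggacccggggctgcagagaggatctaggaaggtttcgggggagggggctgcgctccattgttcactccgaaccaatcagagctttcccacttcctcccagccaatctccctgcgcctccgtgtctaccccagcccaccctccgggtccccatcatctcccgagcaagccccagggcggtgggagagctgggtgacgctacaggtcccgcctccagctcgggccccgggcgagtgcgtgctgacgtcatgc
Lhx4: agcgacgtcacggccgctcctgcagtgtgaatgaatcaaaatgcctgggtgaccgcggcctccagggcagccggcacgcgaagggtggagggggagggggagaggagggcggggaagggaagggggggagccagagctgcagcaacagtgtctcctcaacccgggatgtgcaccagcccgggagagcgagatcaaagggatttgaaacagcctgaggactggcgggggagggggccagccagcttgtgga
Isl1: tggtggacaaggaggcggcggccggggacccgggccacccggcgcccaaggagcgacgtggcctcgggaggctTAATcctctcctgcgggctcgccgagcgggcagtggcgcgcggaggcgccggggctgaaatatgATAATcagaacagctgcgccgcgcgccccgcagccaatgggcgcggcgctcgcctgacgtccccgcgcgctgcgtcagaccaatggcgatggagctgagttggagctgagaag
TAAT or its reverse complement occurred 2 times in the Isl1 window and in neither the Isl2 nor the Lhx4 window, TTAT occurred once in the Isl1 window and in neither of the others, and the E-box CANNTG, the letters bound by proneural factors, had 1 match in the Isl1 window and none in the other two. The TTAT match of Isl1 shares 3 letters with a TAAT match. Of 32851 promoter windows of 250 bases, 54.9% held TAAT, 60.9% held TTAT and 66.2% held CANNTG on at least 1 strand. These matches describe the letters of the windows. In both Isl2 and Lhx4 the window lies inside the RefSeq span of the gene, because another transcript model starts further upstream.

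All 5 genes were low on day 2 and rose by day 4 with and without Dox. Day 2 libraries held 14.2, 19.7 and 5.40 CPM of Isl1, 1.58, 3.20 and 1.00 CPM of Isl2, and 3.74, 6.52 and 3.12 CPM of Lhx3. Lhx4 stood there at 1.55, 2.83 and 0.875 CPM and Mnx1 at 2.53, 5.26 and 4.53 CPM. No day 2 library reached the lowest day 4 library of the same gene. In control neurons the log2 fold change against day 2 was largest for Lhx4 (4.89, standard error 0.25), followed by Isl2 (4.56, standard error 0.27), Mnx1 (4.34, standard error 0.19), Lhx3 (3.94, standard error 0.23) and Isl1 (2.87, standard error 0.27). The least rise of each gene was seen in an iHox line. It was 2.00 for Isl1 in iHoxc9 neurons (standard error 0.27, edgeR adjusted p = 1.04e-06), 1.95 for Isl2 in iHoxc10 neurons (standard error 0.26, edgeR adjusted p = 6.92e-07) and 2.31 for Lhx3 in iHoxc10 neurons (standard error 0.22, edgeR adjusted p = 6.40e-09). Of the 5 genes, 5 passed an edgeR adjusted p under 0.01 as higher than day 2 in each of the 5 day 4 groups. Among all 20944 genes tested, the share called higher than day 2 was 21.2% for control neurons, 22.7% for iHoxc6, 22.3% for iHoxc8 neurons, 23.4% for iHoxc9 and 24.1% for iHoxc10 neurons. These comparisons lie across runs and lines.

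**Figure D1:**
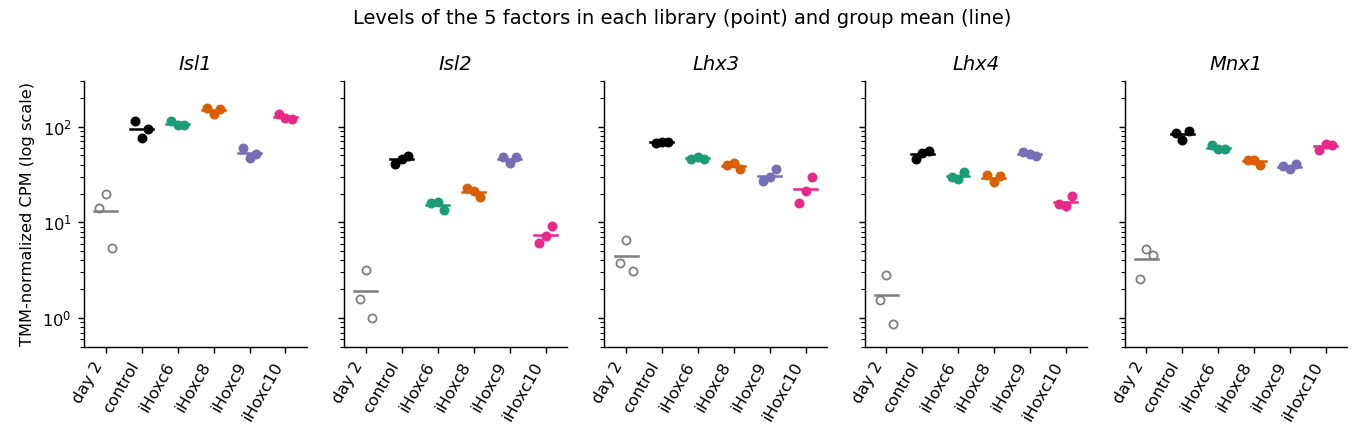
TMM-normalized CPM of Isl1, Isl2, Lhx3, Lhx4 and Mnx1 (1 panel each, log axis) by group; a point is 1 library and a line the mean of 3. Isl2 and Lhx4 are as high in iHoxc9 as in control and lowest of the day 4 groups in iHoxc10, Isl1 is lowest of the day 4 groups in iHoxc9, and all day 2 libraries (open points) lie below all day 4 libraries.

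Isl1, the earliest postmitotic MN factor of the group, was highest in iHoxc8 and lowest in iHoxc9 neurons. The 3 control libraries stood at 115, 76.4 and 94.8 CPM, the iHoxc6 libraries at 115, 104 and 105 CPM, and the iHoxc8 libraries at 157, 136 and 152 CPM. The iHoxc9 libraries stood at 59.3, 46.6 and 51.8 CPM and the iHoxc10 libraries at 136, 123 and 120.1 CPM. All iHoxc9 libraries lay below all other day 4 libraries, whereas iHoxc6 overlapped control. In order of the group means, iHoxc8 (148 ± 11.2 CPM, SD, n = 3) stood before iHoxc10 (127 ± 8.65), iHoxc6 (108 ± 6.13), control (95.5 ± 19.4) and iHoxc9 (52.6 ± 6.43). None of the neighbours in this order differed at an edgeR adjusted p under 0.01. The log2 fold change of Isl1 against control was 0.18 for iHoxc6 (standard error 0.25), 0.63 in iHoxc8 (standard error 0.25), 0.41 in iHoxc10 (standard error 0.25) and -0.86 in iHoxc9 (standard error 0.26, edgeR adjusted p = 0.0165). Isl1 passed the edgeR test in no line. In iHoxc9 it passed in 4 of 12 alternative fits. These were the fit without the second control library (edgeR adjusted p = 0.00718), DESeq2's Wald test, edgeR with no filter beyond 1 count and edgeR on only the groups compared.

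Isl2, the paralog of Isl1 that newborn MNs switch on after it, had the widest range of the 5 genes as a fold between the day 4 group means. It stood at 40.5, 46.2 and 49.6 CPM in control, at 16.0, 16.3 and 13.5 CPM in iHoxc6 and at 22.8, 21.3 and 18.6 CPM in iHoxc8 libraries. In iHoxc9 libraries it stood at 48.7, 42.1 and 48.4 CPM, and in iHoxc10 libraries at 6.09, 7.13 and 9.12 CPM. The iHoxc9 libraries overlapped control, and the iHoxc10 libraries lay below all other day 4 libraries. The means ran from 46.4 ± 3.75 CPM (SD, n = 3) in iHoxc9 and 45.4 ± 4.59 in control over 20.9 ± 2.13 in iHoxc8 and 15.3 ± 1.56 in iHoxc6 to 7.45 ± 1.54 in iHoxc10. In this order iHoxc9 did not differ from control, nor iHoxc8 from iHoxc6 (edgeR adjusted p = 0.228), while control lay above iHoxc8 (edgeR adjusted p = 0.00418) and iHoxc6 above iHoxc10 (edgeR adjusted p = 0.00272). Against control Isl2 fell by 2.61 on the log2 scale in iHoxc10 neurons (standard error 0.24, edgeR adjusted p = 6.99e-08). It fell less in iHoxc6 neurons, which shared the run and the line of control (-1.57, standard error 0.22, edgeR adjusted p = 0.000316), and in iHoxc8 neurons (-1.12, standard error 0.22). In iHoxc9 neurons the log2 fold change was 0.03 (standard error 0.22). The iHoxc8 call was lost without the third control library, the first iHoxc8 library or the third iHoxc8 library, with an edgeR adjusted p from 0.0127 to 0.0277.

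Lhx3, which pairs with Isl factors in MNs and acts without them in V2a interneurons, was highest in control. The control libraries stood at 67.7, 68.4 and 68.9 CPM, the iHoxc6 libraries at 45.7, 47.7 and 46.4 CPM, and the iHoxc8 libraries at 40.2, 41.4 and 35.7 CPM. The iHoxc9 libraries stood at 26.8, 29.5 and 35.7 CPM and the iHoxc10 libraries at 15.8, 21.1 and 29.6 CPM. All control libraries lay above all iHox libraries, and iHoxc9 overlapped iHoxc10. The coefficient of variation within a group was 0.820% in control, 2.20% in iHoxc6 and 7.66% in iHoxc8 libraries. It was 14.9% in iHoxc9 and 31.5% in iHoxc10. Each of these values rests on 3 libraries, and a difference in spread was not tested. At the 1776 to 2109 counts of the control libraries, 0.820% lies below the error of counting. No neighbours in the order of the means differed at an edgeR adjusted p under 0.01, but the ends did. Lhx3 fell by 1.63 on the log2 scale in iHoxc10 neurons (standard error 0.21, edgeR adjusted p = 9.53e-06) and by 1.16 in iHoxc9 neurons (standard error 0.21, edgeR adjusted p = 0.000276). The log2 fold change was -0.80 in iHoxc8 neurons (standard error 0.20, edgeR adjusted p = 0.0185) and -0.55 in iHoxc6 neurons (standard error 0.20, edgeR adjusted p = 0.123), which did not pass. Lhx3 in iHoxc8 passed by DESeq2's Wald test and by edgeR on only the groups compared.

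Lhx4, the paralog of Lhx3, was, like Isl2 and unlike Lhx3, as high in iHoxc9 as in control. It stood at 46.5, 53.3 and 55.1 CPM in control, at 29.9, 28.6 and 33.3 CPM in iHoxc6 and at 31.1, 26.3 and 30.1 CPM in iHoxc8 libraries. In iHoxc9 libraries it stood at 54.6, 51.5 and 49.3 CPM and in iHoxc10 libraries at 15.5, 14.8 and 18.7 CPM. The iHoxc9 libraries again overlapped control, with means of 51.8 ± 2.695 and 51.6 ± 4.56 CPM (SD, n = 3 each). The iHoxc6 and iHoxc8 libraries overlapped each other, with means of 30.6 ± 2.44 and 29.2 ± 2.50 CPM, and the iHoxc10 libraries lay below them all at 16.3 ± 2.07 CPM. Lhx4 fell by 1.66 on the log2 scale in iHoxc10 neurons against control (standard error 0.21, edgeR adjusted p = 5.93e-06). The log2 fold change of Lhx4 was -0.75 for iHoxc6 (standard error 0.20, edgeR adjusted p = 0.0430), -0.82 in iHoxc8 (standard error 0.20, edgeR adjusted p = 0.0152) and 0.00 in iHoxc9 neurons (standard error 0.20), none of which passed. By DESeq2's Wald test iHoxc6 and iHoxc8 passed as well. Lhx4 in iHoxc8 also passed by edgeR with no filter beyond 1 count and on only the groups compared.

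Mnx1, which holds down interneuron genes in MNs, was highest in control and lowest in iHoxc9 and iHoxc8. The control libraries stood at 86.2, 72.7 and 91.1 CPM, the iHoxc6 libraries at 63.9, 59.1 and 58.1 CPM, and the iHoxc8 libraries at 45.2, 45.2 and 40.1 CPM. The iHoxc9 libraries stood at 38.5, 35.8 and 40.2 CPM and the iHoxc10 libraries at 56.8, 65.4 and 64.9 CPM. All control libraries lay above all iHox libraries, iHoxc10 overlapped iHoxc6, and iHoxc9 overlapped iHoxc8. Mnx1 fell by 1.13 on the log2 scale against control in iHoxc9 (standard error 0.17, edgeR adjusted p = 3.29e-05) and by 0.94 in iHoxc8 neurons (standard error 0.17, edgeR adjusted p = 0.00188). The iHoxc8 call was lost without the third control or the third iHoxc8 library (edgeR adjusted p = 0.0136 and 0.0145). The log2 fold change of Mnx1 was -0.46 for iHoxc6 (standard error 0.16) and -0.42 in iHoxc10 neurons (standard error 0.16), which did not pass.

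**Figure D2:**
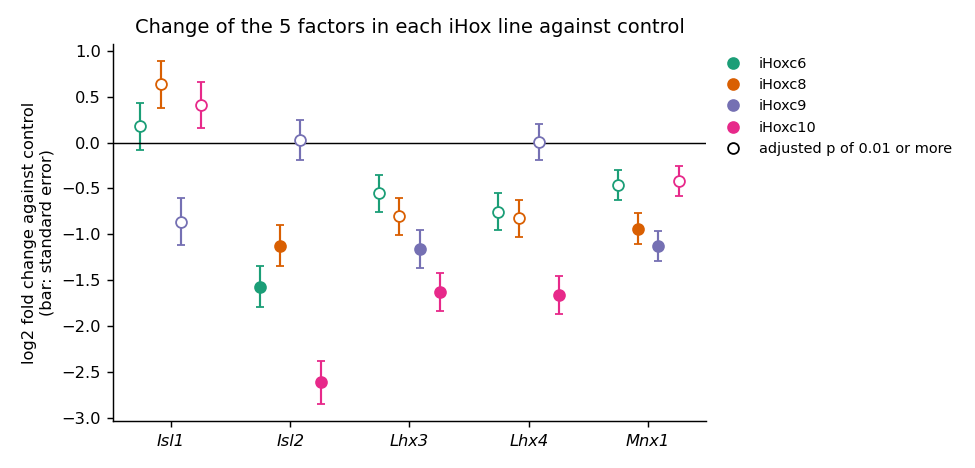
Log2 fold change of each gene in iHoxc6, iHoxc8, iHoxc9 and iHoxc10 neurons against control (vertical axis), with bars of 1 standard error; filled points passed an edgeR adjusted p under 0.01 and open points did not. The filled points are Isl2 in iHoxc6, Isl2 and Mnx1 in iHoxc8, Lhx3 and Mnx1 in iHoxc9, and Isl2, Lhx3 and Lhx4 in iHoxc10. A filled and an open point of the same gene need not differ from each other. Between iHoxc6 and iHoxc8 0 of 5 genes passed.

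Against control, every call was a decrease. In iHoxc6 neurons 1 of the 5 genes passed as lower, where 0.224% of all genes tested did. In iHoxc8 neurons it was 2 of 5 against 1.09%, in iHoxc9 neurons 2 of 5 against 7.13%, and in iHoxc10 neurons 3 of 5 against 7.75%. The median log2 fold change of the 5 genes was -0.55 for iHoxc6, -0.82 for iHoxc8 neurons, -0.86 for iHoxc9 and -1.63 for iHoxc10 neurons, while that of all genes tested was between 0.00 and 0.02. The 4 comparisons share the control libraries. With the additional demand of an absolute log2 fold change above 2, Isl2 in iHoxc10 neurons was the single call left. Because these are bulk libraries, fewer cells expressing a gene and less RNA per cell cannot be told apart.

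The iHox lines were then compared with each other, which leaves the control libraries out of the difference. Between iHoxc9 and iHoxc10 neurons, which shared a run, 4 of the 5 genes passed in either direction, against 4.99% of all genes. Isl2 was higher in iHoxc9 by 2.64 on the log2 scale (standard error 0.24, edgeR adjusted p = 7.04e-08) and Lhx4 by 1.67 (standard error 0.21, edgeR adjusted p = 6.40e-06). Isl1 (-1.27, standard error 0.26, edgeR adjusted p = 0.002) and Mnx1 (-0.71, standard error 0.17, edgeR adjusted p = 0.00696) were lower in iHoxc9. The log2 fold change of Lhx3 was 0.47 (standard error 0.21, edgeR adjusted p = 0.203) and did not pass. The Isl1 call was lost without the second iHoxc9 library or the first iHoxc10 library (edgeR adjusted p = 0.0122 and 0.0102). The Mnx1 call was lost with the replicate number as a block (edgeR adjusted p = 0.0111) and without any 1 of the 6 libraries (edgeR adjusted p from 0.0121 to 0.0419). The Isl2 and Lhx4 calls remained in each refit with another tool, scaling, filter, block or left-out library, and Isl2 alone also met an absolute log2 fold change above 2.

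Between iHoxc6 and iHoxc9 neurons 4 of 5 genes passed, against 11.7% of all genes. Isl2 (-1.60, standard error 0.22, edgeR adjusted p = 1.85e-05) and Lhx4 (-0.76, standard error 0.20, edgeR adjusted p = 0.00884) were lower in iHoxc6, and Isl1 (1.04, standard error 0.26, edgeR adjusted p = 0.00558) and Mnx1 (0.66, standard error 0.17, edgeR adjusted p = 0.00624) were higher. With the replicate block the Lhx4 call was lost (edgeR adjusted p = 0.0135). Isl1 and Lhx4 lost their calls without any 1 of the 6 libraries, with an edgeR adjusted p up to 0.0210 for Isl1 and 0.0606 for Lhx4. Mnx1 lost its call without 5 of the 6, the exception being the third iHoxc6 library, with an edgeR adjusted p up to 0.0257. Isl2 kept its call in each of these fits. Between iHoxc6 and iHoxc10 neurons 3 of 5 genes passed, against 11.0% of all genes, and all were higher in iHoxc6: Isl2 by 1.04 on the log2 scale (standard error 0.23), Lhx3 by 1.07 (standard error 0.21) and Lhx4 by 0.91 (standard error 0.20). Without the first iHoxc10 library none of these 3 passed, with an edgeR adjusted p of 0.0114 for Lhx3. Isl2 (edgeR adjusted p up to 0.0272) also lost its call without the first or second iHoxc6 or the second iHoxc10 library, and Lhx4 (edgeR adjusted p up to 0.0217) without the first or the third iHoxc6 or the second iHoxc10 library.

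The iHoxc8 line, whose transgene belongs like Hoxc6 to the brachial spinal cord, was closest to iHoxc6. Between iHoxc6 and iHoxc8 neurons 0 of 5 genes passed by edgeR or by DESeq2, against 3.55% of all genes by edgeR, and 1 of 5, Mnx1, had an unadjusted p under 0.05 by edgeR (log2 fold change 0.47, standard error 0.16). The log2 fold changes of the others ran from -0.46 for Isl1 to 0.25 for Lhx3, with standard errors of 0.20 to 0.25, so differences of this size were not detectable here. Between iHoxc8 and iHoxc9 neurons 3 of 5 genes passed, against 5.37% of all genes. Isl1 was higher in iHoxc8 (1.497, standard error 0.26, edgeR adjusted p = 0.000315), and Isl2 (-1.15, standard error 0.22, edgeR adjusted p = 0.000938) and Lhx4 (-0.83, standard error 0.20, edgeR adjusted p = 0.0084) were lower. The Lhx4 call was lost without any 1 of the 6 libraries (edgeR adjusted p from 0.0162 to 0.0487). Between iHoxc8 and iHoxc10 neurons 1 of 5 genes passed, against 2.93% of all genes. This was Isl2, higher in iHoxc8 by 1.49 on the log2 scale (standard error 0.23, edgeR adjusted p = 0.000212). Lhx3 (0.82, standard error 0.21, edgeR adjusted p = 0.0173) passed without the third iHoxc10 library (edgeR adjusted p = 0.00445), and by DESeq2's Wald test 4 of the 5 genes passed.

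A ratio of 2 genes within a library does not depend on how the library is scaled, so the 10 ratios among the 5 genes were tested directly. The ratio of Isl1 to Isl2 counts was 2.84, 1.65 and 1.91 in control libraries, 7.20, 6.37 and 7.75 in iHoxc6 libraries and 6.90, 6.38 and 8.17 in iHoxc8 libraries. It was 1.22, 1.11 and 1.07 in iHoxc9 libraries and 22.3, 17.3 and 13.1 in iHoxc10 libraries. The iHoxc9 libraries lay below and the iHoxc10 libraries above all other day 4 libraries, and the geometric means of 1.13 and 17.2 in these 2 groups of a shared run lay 15.2-fold apart. Control lay in between at 2.08, below iHoxc6 (7.08) and iHoxc8 (7.11), which overlapped. In day 2 progenitors, where both genes were low, the ratio was 6.63. The group means of the 5 day 4 groups differed more than regroupings of the 15 libraries would give (two-sided exact permutation test over 1401400 partitions, p = 6.42e-06, adjusted p = 1.61e-05 over 10 ratios).

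The ratio of Lhx3 to Lhx4 separated iHoxc9 from the other groups. It was 1.46, 1.28 and 1.25 in control libraries, 1.53, 1.67 and 1.39 in iHoxc6 libraries, and 1.295, 1.57 and 1.19 in iHoxc8 libraries. It was 0.491, 0.573 and 0.725 in iHoxc9 libraries and 1.02, 1.43 and 1.59 in iHoxc10 libraries. Every iHoxc9 library had more Lhx4 than Lhx3 counts, and every other library had more Lhx3 than Lhx4 counts. The geometric means were 1.33 in control, 1.53 in iHoxc6, 1.34 in iHoxc8 and 1.32 in iHoxc10, against 0.588 in iHoxc9 (exact permutation test, p = 0.00678, adjusted p = 0.00678 over 10 ratios). On day 2 it was 2.69.

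Isl2 and Lhx4 kept the closest ratio. The geometric mean of Isl2 to Lhx4 was 0.879 in control and 0.894 in iHoxc9, 0.715 in iHoxc8, 0.498 in iHoxc6 and 0.453 in iHoxc10, a range of 0.98 on the log2 scale between the highest and lowest day 4 group, the smallest of the 10 ratios. It still differed between groups (exact permutation test, adjusted p = 0.000307). Every iHoxc6, iHoxc8 and iHoxc10 library had fewer Isl2 counts per Lhx4 count than any control library. The widest ranges were 3.93 for Isl1 to Isl2, 3.36 for Isl2 to Mnx1 and 2.95 for Isl1 to Lhx4. Mnx1 and Lhx3 kept a similar ratio in control (0.824 Lhx3 per Mnx1 count), iHoxc6 (0.773), iHoxc8 (0.899) and iHoxc9 (0.798), and iHoxc10 stood apart at 0.345. All 10 ratios passed an adjusted p under 0.05 over the 5 day 4 groups, also without the control libraries. Within the shared runs, the libraries did not overlap in 7 of 10 ratios between iHoxc6 and control and in 10 of 10 between iHoxc9 and iHoxc10. The 10 ratios are built from the same 5 genes, so they are not separate results. No share over other gene pairs was computed. With 3 libraries against 3 the smallest two-sided exact permutation p is 0.1, so single ratios within a run could not reach 0.05.

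**Figure D3:**
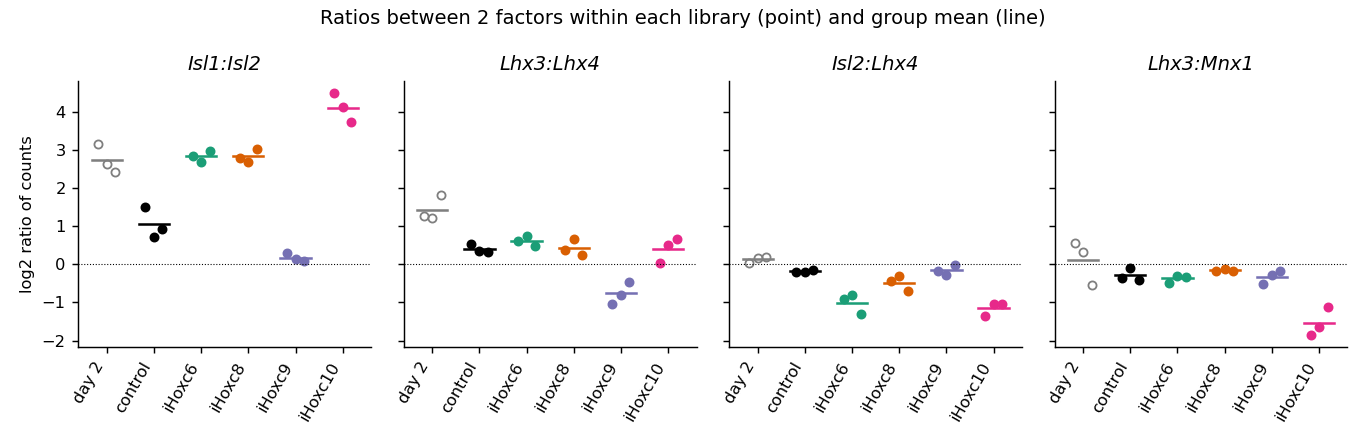
Log2 ratio of counts of Isl1 to Isl2, Lhx3 to Lhx4, Isl2 to Lhx4 and Lhx3 to Mnx1 by group; a point is 1 library, a line the mean of 3, and the dotted line equal counts. Isl1 to Isl2 is lowest in iHoxc9 (mean 0.18) and highest in iHoxc10 (4.10), Lhx3 to Lhx4 is below 0 in the 3 iHoxc9 libraries alone, and Lhx3 to Mnx1 is lowest in iHoxc10 (-1.54).

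Counts of long genes exceed those of short genes at equal transcript number, so the shares of the 5 genes were computed per kilobase of exon (GENCODE M21). In control neurons the summed level was 113 ± 7.83 CPM per kilobase (SD, n = 3), of which Mnx1 made up 32.6%, Isl1 21.2%, Lhx3 19.9%, Isl2 18.3% and Lhx4 7.97%. The sum was 81.7 ± 2.89 in iHoxc6, 84.3 ± 3.97 in iHoxc8, 70.5 ± 4.31 in iHoxc9 and 73.2 ± 2.97 CPM per kilobase in iHoxc10 neurons, below every control library. The makeup differed more than the sum. Isl2 held 29.98% in iHoxc9 but 4.62% in iHoxc10 neurons, and Isl1 held 18.8% in iHoxc9 but 43.8% in iHoxc10. Mnx1 held 37.8% in iHoxc10, the highest share of a day 4 group, and 23.0% in iHoxc8, the lowest. The order of the genes within a group depended on the length used. In control neurons Isl1 stood at 24.1 and Mnx1 at 37.0 CPM per kilobase of exon, but at 38.0 and 37.1 with the longest transcript as length. Of 30 levels by gene and group, 15 moved by at least 1 SD between these lengths.

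Taken by family, the Isl1 and Isl2 levels together were 44.8 ± 3.90 CPM per kilobase in control neurons, 34.2 ± 1.93 for iHoxc6, 47.0 ± 3.07 for iHoxc8 neurons, 34.4 ± 3.19 for iHoxc9 and 35.4 ± 1.61 for iHoxc10 (SD, n = 3 each). The totals of iHoxc9 and iHoxc10 neurons overlapped between libraries, while Isl2 made up 61.5 ± 1.59% of the total in iHoxc9 and 9.65 ± 2.30% in iHoxc10. In iHoxc6 and iHoxc8 neurons Isl2 made up 20.3 ± 1.61% and 20.3 ± 2.02%, against 46.5 ± 6.91% in control. Lhx3 and Lhx4 together were 31.4 ± 0.975 CPM per kilobase in control neurons, 20.6 ± 0.406 for iHoxc6, 17.9 ± 0.845 for iHoxc8 neurons, 19.1 ± 1.06 for iHoxc9 and 10.1 ± 2.60 for iHoxc10. Lhx4 made up 47.4 ± 4.88% of this sum in iHoxc9 and between 25.8% and 28.8% in the other day 4 groups. With the longest transcript as length the share of Isl2 in the Isl total was 54.6% in iHoxc9 and 7.44% in iHoxc10 neurons. The order of libraries by this share cannot change with the length, because each gene is divided by 1 fixed length.

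**Figure D4:**
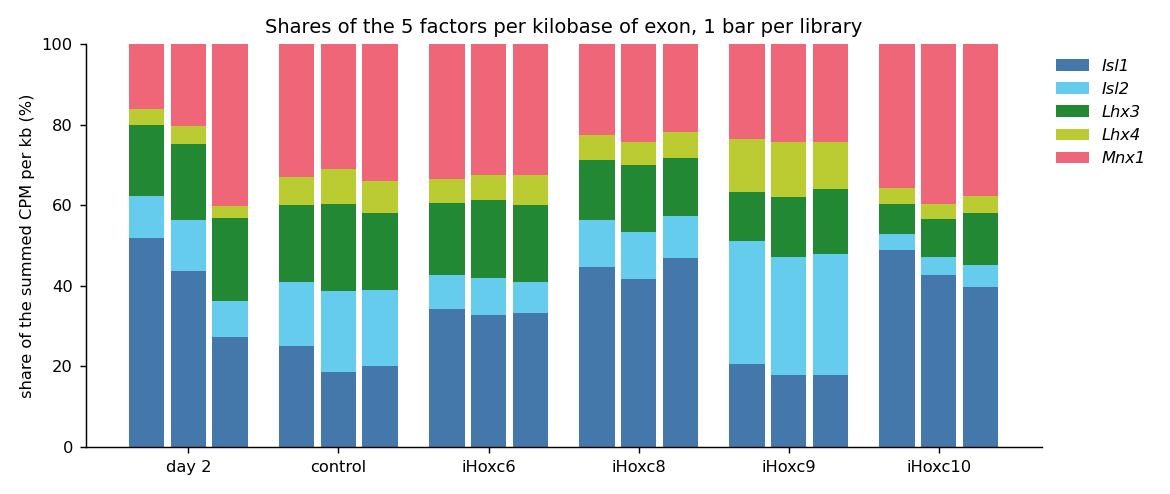
Share of each gene in the summed CPM per kilobase of exon of the 5 genes (vertical axis, percent), with 1 stacked bar per library and 3 per group. The Isl2 segment is widest in iHoxc9 (29.98% on average) and narrowest of the day 4 groups in iHoxc10 (4.62%), and the Lhx4 segment is widest in iHoxc9 (12.8%).

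Over the 15 day 4 libraries, which fall into 5 groups of 3 and share lines and runs, the log2(CPM + 1) levels of Isl2 and Lhx4 had a Pearson's r of 0.97, which is given as a description without a test. Among 12708 genes with a mean of at least 1 CPM, each of these 2 was the gene most like the other. Isl1 ran opposite to both, with an r of -0.65 with Isl2 and -0.68 with Lhx4, and its r was -0.03 with Lhx3 and 0.32 with Mnx1. Lhx3 and Lhx4 had an r of 0.62. Next to Lhx4, the genes most like Isl2 were Fam163a (r = 0.94) and Chrna3 (r = 0.90), a nicotinic acetylcholine receptor subunit. The genes most like Lhx4 after Isl2 were Fam163a (r = 0.93) and Chrnb4 (r = 0.92), another subunit of that receptor. Those most like Isl1 were Scg2, a secretogranin of secretory vesicles (r = 0.95), Anks1b (r = 0.94) and Runx1, a transcription factor (r = 0.94). The genes most like Lhx3 were Dut, the dUTPase of dividing cells (r = 0.98), Haus1, a subunit of the spindle complex augmin (r = 0.97), and Mxd3 (r = 0.97), and those most like Mnx1 were Bend5 (r = 0.94), H2-D1 (r = 0.93) and Fam98c (r = 0.92). With Spearman's rho 1 of the 3 genes stayed for each member. Without the control libraries 1 of 3 stayed for Isl2 (Fam163a) and for Lhx4 (Chrnb4), and none for Isl1, Lhx3 and Mnx1. Isl2 and Lhx4 then still had an r of 0.96, but neither was among the 3 genes most like the other. Most of these names thus depend on the measure and the libraries.

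**Figure D5:**
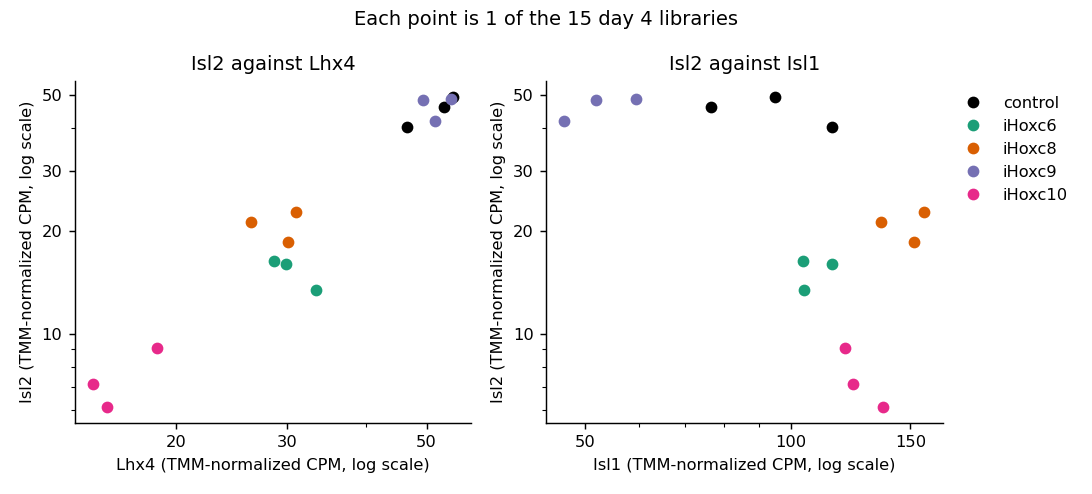
TMM-normalized CPM of Isl2 against Lhx4 (left) and against Isl1 (right) in the 15 day 4 libraries, on log axes; a point is 1 library. Isl2 and Lhx4 are both lowest in iHoxc10, intermediate in iHoxc6 and iHoxc8 and highest in control and iHoxc9 (r = 0.97), whereas iHoxc9 libraries are lowest in Isl1 among the high Isl2 libraries (r = -0.65 over all 15).

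The genes around the 5 factors were counted in 4 lists of 59 genes: progenitor and proneural factors that act before them, partners of the LIM complex, MN effector genes and other LIM homeodomain genes. Against control, 1 of the 59 passed in iHoxc6 neurons (1.69%, against 0.587% of all genes in either direction), 5 in iHoxc8 (8.47%, against 2.12%), 26 in iHoxc9 (44.1%, against 14.1%) and 19 in iHoxc10 neurons (32.2%, against 14.4%). Among the 16 progenitor and proneural factors, 5 were higher and 6 lower in iHoxc9, and 2 were higher and 6 lower in iHoxc10 neurons. Olig2, which prepares progenitors for MN fate, fell by 1.25 on the log2 scale in iHoxc9 (edgeR adjusted p = 0.00163) and by 1.26 in iHoxc10 (edgeR adjusted p = 0.00148). Its neighbour Olig1 fell by 2.16 in iHoxc9 and 2.50 in iHoxc10. Neurog1 fell by 2.33 in iHoxc9 and was also lower in iHoxc10 (-1.13, edgeR adjusted p = 0.00283). Neurog2, a proneural factor that drives MN genes together with Isl1 and Lhx3, was higher in iHoxc9 (1.13, edgeR adjusted p = 0.00127) and had a log2 fold change of -0.62 in iHoxc10 (edgeR adjusted p = 0.0612). The progenitor factor Nkx6-2 was lower in all 4 lines, from -1.79 in iHoxc6 to -1.94 in iHoxc9, and was the 1 call in iHoxc6. Sox2, a factor of dividing neural progenitors, was higher in iHoxc8 (0.72, edgeR adjusted p = 0.0038) and in iHoxc9 neurons (1.10, edgeR adjusted p = 4.75e-06).

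Of the 18 partners of the LIM complex, 2 were higher in iHoxc8, 5 were higher and 2 lower in iHoxc9, and 5 were higher and 1 lower in iHoxc10 neurons. Ldb1 itself, the bridge of the complex, passed in no line. Its mean lay between 236 and 280.3 CPM in the 5 day 4 groups, and its log2 fold change against control lay between -0.18 and 0.07 with a standard error of 0.12. Its paralog Ldb2 rose from 0.528 CPM in control to 1.82 CPM in iHoxc8, 3.98 CPM in iHoxc10 and 15.5 CPM in iHoxc9 neurons (log2 fold changes 1.76, 2.89 and 4.85, edgeR adjusted p = 0.000579, 7.85e-08 and 1.34e-11). Ebf1, an early neuronal factor, was higher by 2.06 in iHoxc9 (edgeR adjusted p = 5.41e-08) and by 1.55 in iHoxc10 neurons (edgeR adjusted p = 5.69e-06). The LIM-only genes Lmo3 in iHoxc8 (1.504, edgeR adjusted p = 0.000898) and Lmo2 in iHoxc10 neurons (2.00, edgeR adjusted p = 4.56e-05), whose products bind LDB1 without binding DNA, also rose. Other LIM-only genes made up all the lower calls of this list. Lmo1 fell in iHoxc9 (-0.90, edgeR adjusted p = 0.000919) and in iHoxc10 (-0.80, edgeR adjusted p = 0.00238), and Lmo4 fell in iHoxc9 (-0.52, edgeR adjusted p = 0.0027). Of the 8 other LIM homeodomain genes, Lhx1, which marks the lateral division of limb-innervating MNs and several interneurons, was the call in both lines, lower in iHoxc9 (-1.87) and higher in iHoxc10 neurons (2.22).

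Of the 17 MN effector genes 1 was lower in iHoxc8, 2 were higher and 5 lower in iHoxc9, and 3 were higher and 1 lower in iHoxc10 neurons. Peripherin (Prph), an intermediate filament of motor axons, fell in 3 lines, by 1.23 on the log2 scale in iHoxc8, 3.43 in iHoxc9 and 1.98 in iHoxc10 neurons (edgeR adjusted p = 0.000851, 1.59e-10 and 4.97e-07). The neuropeptide gene Calca fell by 1.80 in iHoxc9 (edgeR adjusted p = 0.000494). Gfra1, a receptor for GDNF, rose by 2.09 in iHoxc10 (edgeR adjusted p = 2.64e-09) and by 0.76 in iHoxc9 (edgeR adjusted p = 0.000639). Of the cholinergic genes, Chat, Slc18a3 and Slc5a7 all had negative log2 fold changes in iHoxc6 and iHoxc9 and mixed signs in iHoxc8 and iHoxc10 neurons. Chat, the enzyme that makes acetylcholine, fell by 1.51 in iHoxc9 (edgeR adjusted p = 4.73e-05) and had log2 fold changes of -1.001 in iHoxc6, -0.98 in iHoxc8 and -0.37 in iHoxc10 that did not pass. The vesicular transporter Slc18a3 fell by 0.81 in iHoxc9 (edgeR adjusted p = 0.00311), and the choline transporter Slc5a7 passed in no line.

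Other cell types of the culture also express some of the 5 genes, and markers of several of them also differed between groups. Of the V2a interneuron genes, Shox2 stood between 4.78 and 5.98 CPM in iHoxc9 libraries, where Lhx4 and Isl2 were as high as in control, against 0.0385 to 0.225 CPM in control libraries (edgeR adjusted p = 9.56e-09), and Sox14 stood between 0.716 and 1.62 CPM in iHoxc9 against 0.112 to 0.225 CPM in control libraries (edgeR adjusted p = 0.00156). The log2 fold change of Vsx1 in iHoxc9 was -1.95 (edgeR adjusted p = 0.0327), which did not pass, and Lhx3, which is on the same list, was lower. Neither Shox2 nor Sox14 passed against control in the other 3 lines, and these V2a genes were chosen for naming after their values were seen. The V3 interneuron markers (2 of 2 higher than control in iHoxc9 and in iHoxc10) summed to 41.8 to 49.0 CPM in iHoxc9, 21.6 to 28.4 in iHoxc10 and 5.43 to 12.01 in control libraries. The markers of cranial branchial and visceral MNs, which use Isl1 but not Lhx3 or Mnx1, were lower than control in iHoxc9 (3 of 3) and summed to 7.16 to 12.8 CPM there, against 32.9 to 36.3 in control, 58.7 to 69.4 in iHoxc8, where Isl1 was highest and 1 of the 3 markers was higher, and 31.2 to 48.7 in iHoxc10 libraries. The dI3 and sensory markers, cells that also carry Isl1, summed to 13.6 to 15.1 CPM in iHoxc9 and 20.9 to 40.0 in control libraries. In iHoxc9, 2 of 4 were higher and 1 lower. The sum was 46.4 to 64.0 CPM in iHoxc6 libraries, where 1 of 4 was higher and Isl1 overlapped control. Floor plate markers summed to 15.5 to 35.1 CPM in iHoxc9 and 56.9 to 68.9 in control libraries, with 2 of 3 lower. The V0, V1, V2b, pluripotent and glial lists stayed below 10 CPM in every day 4 library, and the pan-neuronal list between 3473 and 5685 CPM, with 1 of 4 markers higher than control in iHoxc9 and 2 of 4 in iHoxc10. The part of these cells in the levels of the 5 genes was not tested.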

How the data were processed

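RNA-seq counts per gene were deposited for 18 libraries. Per the labels and the study's methods, the authors prepared stranded mRNA libraries, aligned single-end reads with STAR 2.7.0c to mm10 and counted reads over RefSeq genes with featureCounts, without normalization. The strand setting is not given in the sources used here. Groups came from the sample titles, with 3 libraries each from separate differentiations per the study's methods.

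The counts were fitted with edgeR 4.0.16 in R 4.3.3 (quasi-likelihood test, TMM normalization), in 1 fit of all 18 libraries. Genes without a count in any iHox library were left out, and 20944 were tested. A call is a Benjamini-Hochberg adjusted p under 0.01, and 15 comparisons were made. Ratios used counts with 0.5 added and exact permutation tests in Python 3.11.15. Depth ranged from 24498630 to 33168533 counts. The scripts were tested on simulated data. Alternatives were DESeq2 1.42.0, its size factors, a minimum of 10 counts in 3 libraries, no filter beyond 1 count, fits of only the groups compared, an absolute log2 fold change above 2 as well, leaving out each library, and a block for the replicate number.

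Replicate numbers in the titles do not state a shared batch. Same-numbered libraries deviated together (every correlation over 0.1) between iHoxc6 and iHoxc8 (0.287 to 0.63), iHoxc6 and iHoxc9 (0.117 to 0.215) and iHoxc9 and iHoxc10 (0.474 to 0.651), and not in the other 12 comparisons.

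The text names the 5 members throughout, the 3 genes most correlated with each over the 15 day 4 libraries (mean of at least 1 CPM), the genes past the test with the 2 largest absolute changes per list and line against control, and Chat, Slc18a3, Slc5a7, Ldb1, Olig2, Neurog2 and Lhx1 whatever their values. Marker genes of other cell types (Shox2, Sox14, Vsx1, Pou5f1 and Nanog), Lmo1, Lmo4 and the induced Hox genes are named outside this rule. Not every gene that this rule allows is named, and 1 further gene of the rule, with the list sums and counts that hold it, is not reported here. The members and the lists were chosen with earlier results of these data known.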

Additional observations from a re-analysis of the deposited data

Results flagged for a closer look

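The values below are differences between 2 Hox lines of their changes against control, each passing the edgeR test (adjusted p under 0.01), and none is explained here. Between iHoxc9 and iHoxc10 neurons of a shared run, the log2 difference was 2.64 for Isl2, 1.67 for Lhx4, -1.27 for Isl1 and -0.71 for Mnx1. Between iHoxc6 and iHoxc9 neurons it was -1.60 for Isl2, -0.76 for Lhx4, 1.04 for Isl1 and 0.66 for Mnx1. Between iHoxc6 and iHoxc10 neurons it was 1.04 for Isl2, 1.07 for Lhx3 and 0.91 for Lhx4. Between iHoxc8 and iHoxc9 neurons it was 1.497 for Isl1, -1.15 for Isl2 and -0.83 for Lhx4, and between iHoxc8 and iHoxc10 neurons it was 1.49 for Isl2. The 2 lines of a pair stand in the order named, and a positive value means a higher level in the first. All but the first 4 values lie across sequencing runs.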

How the results depend on the processing

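Of 900 alternative values of single genes, 819 kept their direction and side of the threshold, 51 lost and 16 gained a call, and 14 changed sign. The sign changes were in iHoxc9 against control, where the log2 fold changes are near 0: Isl2 was -0.00591 by DESeq2, -0.00595 with DESeq2 size factors, -0.0190 without the filter and -0.0499 to 0.0679 with 1 library left out, and Lhx4 was -0.0311, -0.0310 and -0.0444 in the same settings, -0.0203 with only the groups compared and -0.0657 to 0.0288 with 1 library left out. The mean log2 ratio of Isl1 to Lhx4 in iHoxc9 was -0.0374 to 0.0952 with 1 library left out. With an absolute log2 fold change above 2 as well, the genes called against control were 0 for iHoxc6, 0 for iHoxc8 neurons, 0 for iHoxc9 and 1 for iHoxc10, 0 between iHoxc6 and iHoxc9, 0 between iHoxc6 and iHoxc10, 0 between iHoxc8 and iHoxc9, 0 between iHoxc8 and iHoxc10, and 1 between iHoxc9 and iHoxc10. DESeq2 called 2 genes in iHoxc6 and 4 in iHoxc8 against control and 4 between iHoxc8 and iHoxc10, and a fit of only the groups compared called 4 in iHoxc8 against control and 2 between iHoxc8 and iHoxc10. With 1 library left out, the counts were 0 to 2 in iHoxc8 against control, 1 to 2 between iHoxc6 and iHoxc9, 0 to 3 between iHoxc6 and iHoxc10, 1 to 2 between iHoxc8 and iHoxc10, and 2 to 3 between iHoxc9 and iHoxc10. Beyond what these settings build in, the cause was not tested.

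With the replicate block 3 calls were lost: Lhx4 between iHoxc6 and iHoxc9 (edgeR adjusted p = 0.0135), Lhx4 between iHoxc8 and iHoxc9 (edgeR adjusted p = 0.0148) and Mnx1 between iHoxc9 and iHoxc10 (edgeR adjusted p = 0.0111), and it changed no other call of the 5 genes. With 3 libraries a group, the standard errors were 0.16 to 0.28 on the log2 scale, and changes several times as large could still miss the call. Examples against control are Lhx4 in iHoxc8 (-0.82, standard error 0.20, edgeR adjusted p = 0.0152) and Isl1 in iHoxc9 neurons (-0.86, standard error 0.26, edgeR adjusted p = 0.0165).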
